A study of Mus musculus with 12 samples.

Results

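Transcripts of 10 genes of the choroid plexus epithelium were followed across 12 arrays of mouse hippocampus and cortex: Ttr, Kl, Folr1, Enpp2, Clic6, Sostdc1, Aqp1, Otx2, Prlr and Kcne2. The genes were chosen by name, and every probe that carries one of these symbols in both non-normalized tables was taken, which gave 16 probes of 25697 and 10 gene symbols of 18097. Ttr, Enpp2, Clic6, Sostdc1, Otx2 and Kcne2 had 1 probe each, Kl and Folr1 had 2 each, and Aqp1 and Prlr had 3 each. The arrays (Illumina MouseRef-8 v2) carry 50-base probes, whose mean bead brightness is called the signal here. The samples came from male 3×TgAD mice, a line that carries mutant human APP and tau transgenes and a mutant presenilin, which serves as a model of Alzheimer's disease plaques and tangles. AMI-treated mice drank water with amitriptyline-hydrochloride, a tricyclic antidepressant, at 100 µg per g of body weight for 4 months from the age of 14 months, vehicle-treated mice drank plain water, and both received the thymidine analogue BrdU by injection. Each of the 4 groups (hippocampus vehicle, hippocampus AMI, cortex vehicle, cortex AMI) had 3 arrays. The labels do not say which mouse gave which sample, or whether samples were pooled, so the p-values measure only the spread between these samples. Mice without the transgenes were not among the samples.

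The choroid plexus is a fold of vascular tissue in the brain ventricles whose epithelium secretes the cerebrospinal fluid. One sheet of it lies in the lateral ventricle along the fimbria of the hippocampus, so that a dissected hippocampus or cortex can carry more or less of it. Its epithelial cells make transthyretin in very large amounts, and the protein, a carrier of thyroid hormone and of retinol-binding protein, is also known to bind amyloid beta. In such bulk samples, fewer epithelial cells and less of a transcript per cell cannot be told apart.

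The probes are shown for genes whose probes disagreed or carried a result of their own. Enpp2 was the tested gene whose hippocampal AMI and vehicle arrays did not overlap, Folr1 was seen in the hippocampus on a single array, and the Prlr probes read different signals. The letters are as the deposited annotation columns give them, 5′ to 3′, with no part marked in capitals.
Enpp2 probe ILMN_2954474: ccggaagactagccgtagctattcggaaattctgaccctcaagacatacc
Folr1 probe ILMN_2707541: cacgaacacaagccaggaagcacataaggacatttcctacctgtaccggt
Prlr probe ILMN_2868699: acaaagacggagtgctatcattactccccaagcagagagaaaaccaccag
Prlr probe ILMN_1242620: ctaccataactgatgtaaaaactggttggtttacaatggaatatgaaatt
The annotation places the Enpp2 probe from base 2555 of its transcript, on chromosome 15 between 54670946 and 54670995 of the minus strand, and the Folr1 probe from base 580 of its transcript, on chromosome 7 between 109007986 and 109008035 of the minus strand. The printed Prlr probes start at bases 1839 and 777 of their transcripts and lie on the plus strand of chromosome 15, at 10273673 to 10273722 and at 10252228 to 10252277. The genome build of these positions is not given in the sources used here. The exon or untranslated region that each probe covers was not analysed here.

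The OTX factors, of which Otx2 is the one made by choroid plexus epithelium, bind the letters TAATCC. Promoter windows of 250 bases before a transcription start were at hand for 5 of the 10 genes (Kl, Aqp1, Otx2, Prlr and Kcne2, 11 windows, RefSeq on GRCm38.p6). The motif, searched on both strands as TAATCC and GGATTA, was found in 1 of these 11 windows and in 6.25% of 32851 windows of all genes in the same table. The 1 match was 211 bases before a start of Otx2 itself, shown here with 12 bases on either side and the motif in capitals.
Otx2 promoter, chr14:48665303-48665332, GRCm38.p6, minus strand: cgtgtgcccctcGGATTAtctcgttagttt
A match is a run of letters and was not tested as a binding site.

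The 12 arrays were alike in depth, with 12588 to 13280 of the 25697 probes detected on each (detection p of 0.05 or less, as given by the scanner software), and the median signal of undetected probes lay between 52.2 and 73.2. The hippocampal and cortical arrays were exported as separate tables by different versions of the scanner software, so tissue and table cannot be told apart. The neuron markers differed between the labelled tissues. Of 7 tested hippocampal neuron probes, 6 were called higher and 1 lower in the hippocampus. Of 14 tested cortical neuron probes, 12 were called lower and 1 higher in it. Of all 13929 tested probes 42.2% were called between the tissues (limma, adjusted p under 0.05), 3326 higher and 2554 lower in the hippocampus. One array stood apart in the choroid plexus genes, that of hippocampal vehicle replicate 3. The comparisons of the 10 genes that include it are given with and without it, except a fit with the replicate number as a block. It was singled out after its values were seen.

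Transthyretin was detected on all 12 arrays, and its signal ran from 416 to 47496 among them. Its hippocampal signals were 1549, 4825 and 47496 in vehicle replicates 1, 2 and 3, and 874, 3502 and 4071 in AMI replicates 1, 2 and 3. Vehicle replicate 3 was 13.6 times the median of the other 5 hippocampal arrays, whose signals of vehicle and AMI mice were interleaved. On that array Ttr was the probe of rank 2 of 25697, close to the brightest signal of 49616, whereas on the other hippocampal arrays its rank lay between 412 and 1529. In the cortex the signals were 13704, 1367 and 4430 in vehicle replicates 1, 2 and 3, and 416, 12849 and 12852 in AMI replicates 1, 2 and 3. High and low cortical arrays were thus found in both treatments, with vehicle replicate 1 and AMI replicates 2 and 3 high and AMI replicate 1 lowest.

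Among the enzymes and secreted or shed proteins, Enpp2 encodes autotaxin, which makes lysophosphatidic acid and is made by oligodendrocytes as well as by choroid plexus. Its hippocampal signals were 1968, 2936 and 10020 on the vehicle arrays and 1115, 2257 and 2157 on the AMI arrays, and its cortical signals 3309, 1687 and 2404 (vehicle) and 1757, 3499 and 3645 (AMI). Normalized, the hippocampal vehicle arrays all lay above the AMI arrays, although the deposited signals overlapped, and the cortical groups overlapped. Kl encodes klotho, a membrane protein that is shed and acts with receptors of fibroblast growth factors. The brighter Kl probe (ILMN_1253148) read 164, 208 and 975 on the hippocampal vehicle arrays and 132, 275 and 201 on the AMI arrays. In the cortex it read 210, 89.8 and 139 (vehicle) and 93.2, 211 and 206 (AMI), with the same arrays high as for Ttr. The other Kl probe was detected on none of the 12 arrays. Sostdc1 encodes a secreted antagonist of BMP and Wnt signals. It read 91.2, 130 and 562 on the hippocampal vehicle arrays against 78.1, 133 and 110 on the AMI arrays, and between 94.5 and 188 in the cortex. By the deposited signals of Kl and Sostdc1, vehicle replicate 3 was the hippocampal vehicle array outside the range of the AMI arrays. Normalized, Sostdc1 on vehicle replicate 2 (-0.23) also lay above the AMI arrays (-0.50 to -0.30).

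Among the channels and their subunits, Clic6 encodes a chloride intracellular channel protein. It read 105, 180 and 1801 on the hippocampal vehicle arrays and 91.4, 210 and 166 on the AMI arrays. Its cortical signals were 495, 217 and 362 (vehicle) and 224, 444 and 475 (AMI). Each cortical array was thus above all hippocampal arrays other than vehicle replicate 3. Aqp1 encodes the water channel of the apical membrane of the epithelium. Its 3 probes read 666, 461 and 210 on hippocampal vehicle replicate 3, and on the other 5 hippocampal arrays they read 58.2 to 79.8, 71.3 to 106 and 59.7 to 74.6. In the cortex they read 80.9 to 207, 89.9 to 173 and 77.8 to 106. Kcne2 encodes a subunit of potassium channels. It was detected on 2 hippocampal arrays, vehicle replicate 3 (278) and AMI replicate 3 (79.1), and on 4 cortical ones, with a highest cortical signal of 125. Most other Aqp1 and Kcne2 signals in the hippocampus were close to those of undetected probes.

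Among the receptors and the transcription factor, Folr1 encodes the folate receptor through which the epithelium passes folate into the cerebrospinal fluid. Its probes read 324 and 311 on hippocampal vehicle replicate 3, the only hippocampal array on which either was detected, and 50.9 to 74.9 on the other 5. The cortical arrays with Folr1 detected by the brighter probe were vehicle replicates 1 (124) and 3 (86.8) and AMI replicates 2 (134) and 3 (129). Prlr encodes the prolactin receptor, which is spliced into forms with different tails. Probe ILMN_2617005 was detected on every array and read 107, 163 and 1001 on the hippocampal vehicle arrays, 77.9, 155 and 156 on the hippocampal AMI arrays, and 103 to 229 in the cortex. Probe ILMN_2868699 read 159 on hippocampal vehicle replicate 3 and at most 80.7 on the other hippocampal arrays, and probe ILMN_1242620 was detected on no array. The probes of Prlr therefore did not all register the array on which the gene was highest. Otx2, the homeobox factor of the epithelium, read 74.5, 102 and 373 on the hippocampal vehicle arrays, 58.6, 90.4 and 96.1 on the AMI arrays, and 84.6 to 149 in the cortex.

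**Figure D1:**
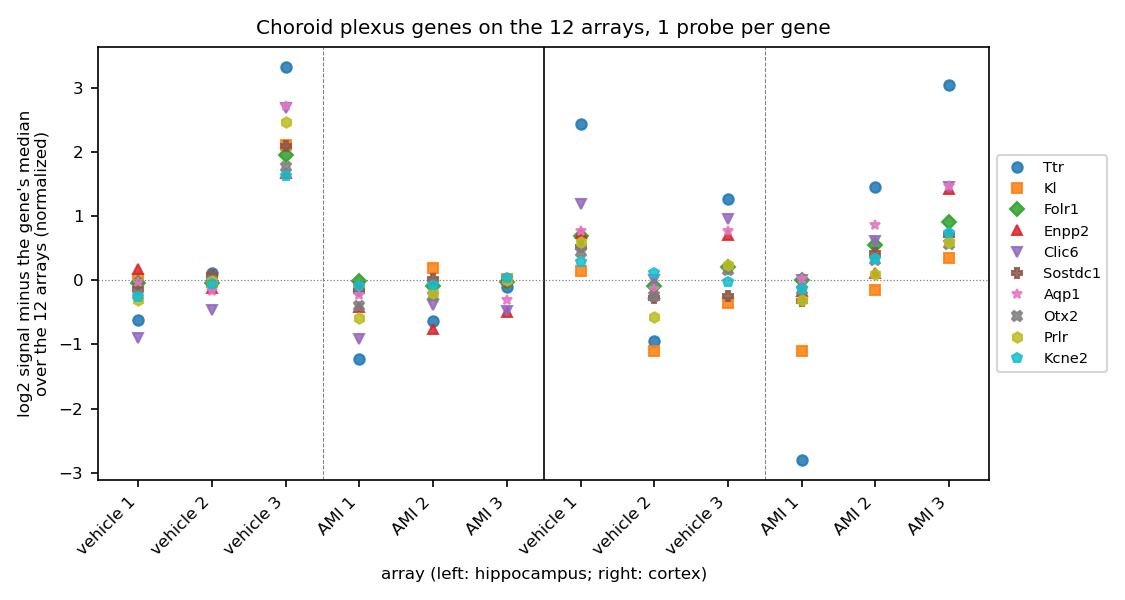
Log2 signal of each gene's brightest probe on each of the 12 arrays (z normalization over all arrays), minus that gene's median over the 12; points are single arrays, with no error bars. All 10 genes sit at their highest on hippocampal vehicle replicate 3, with Ttr and Enpp2 on cortical AMI replicate 3 at 82.1% and 84.8% of their levels there, and Ttr spreads over the widest range.

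For the comparisons the signals were put on a log2 scale, centred and scaled per array (z normalization, returned to log2 units), and a probe was tested where it was detected on at least 3 arrays of the set. In the hippocampus 9 probes of 8 genes were tested. The dimmer Prlr probe (ILMN_2868699) was detected on 3 hippocampal arrays, vehicle replicate 3 among them, and would not have been tested without that array. All 9 were highest on vehicle replicate 3, also by the deposited signals and after quantile normalization, where 17.1% of all 13163 tested probes were highest on that array. For 8 of the 9 the array exceeded every other hippocampal array by 1 or more on the log2 scale, which 0.289% of all tested probes (38 of 13163) did. The differences from the next array were 3.41 for Ttr, 3.26 for Clic6, 2.60 for Prlr, 2.21 for Aqp1, 2.13 for Sostdc1, 2.02 for Kl, 1.85 for Otx2, 1.58 for Enpp2 and 0.87 for the dimmer Prlr probe. Their median was 2.13, against -0.17 over all tested probes. No other array exceeded the rest of its tissue by that margin for more than 8 probes. At the other end, AMI replicate 1 was the lowest hippocampal array for 7 of the 9 probes, and for 5 of the 9 after quantile normalization. How often all tested probes were lowest on it was not counted.

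Of 49 further choroid plexus genes that were listed, 39 were on the array and 25 probes of 23 of them were tested in the hippocampus. This list and those of the other cell types were chosen with earlier results of these data known. Of these probes, 21 were highest on vehicle replicate 3, 11 of them by 1 or more, with a median difference of 0.86. They included 1500015O10Rik, known as augurin, with a signal of 1500 against 60.6 to 142 on the other hippocampal arrays. Slc13a4, a sulfate transporter, differed by 2.16, and Igf2, a growth factor made by choroid plexus and meninges, by 2.15. Genes of neighbouring cell types were also high on that array. Of 11 tested probes of ependyma, the ciliated lining of the ventricles, 9 were highest there, none by 1 or more, and the summed level of the list, in units of normalized signal, was 2106 against 1181 to 1566 on the other hippocampal arrays. Of 9 tested probes of the meninges, 8 were highest there, 2 of them by 1 or more (Ptgds, a prostaglandin D synthase, and Slc6a13, a GABA transporter), and the sum was 9584 against 3992 to 4729. The choroid plexus also makes Ptgds, which read 5578 on that array and 516 to 2043 on the other hippocampal ones. Its part in the meningeal sum was not separated out. Lum was the tested meningeal gene not highest there (-0.10). In each of the ependymal and meningeal lists 3 genes were detected on no array. These were Spag17, Wdr16 and Dnahc11 of the ependyma, and Col1a2, Col3a1 and Bmp6 of the meninges. Against the 17.1% of all tested probes, 1 of 10 endothelial, 0 of 7 hippocampal neuron and 2 of 12 cortical neuron probes were highest on that array, and 4 of 9 striatal and 3 of 9 thalamic ones, none of them by 1 or more. The part of ependyma and meninges in the choroid plexus values was not tested.

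**Figure D2:**
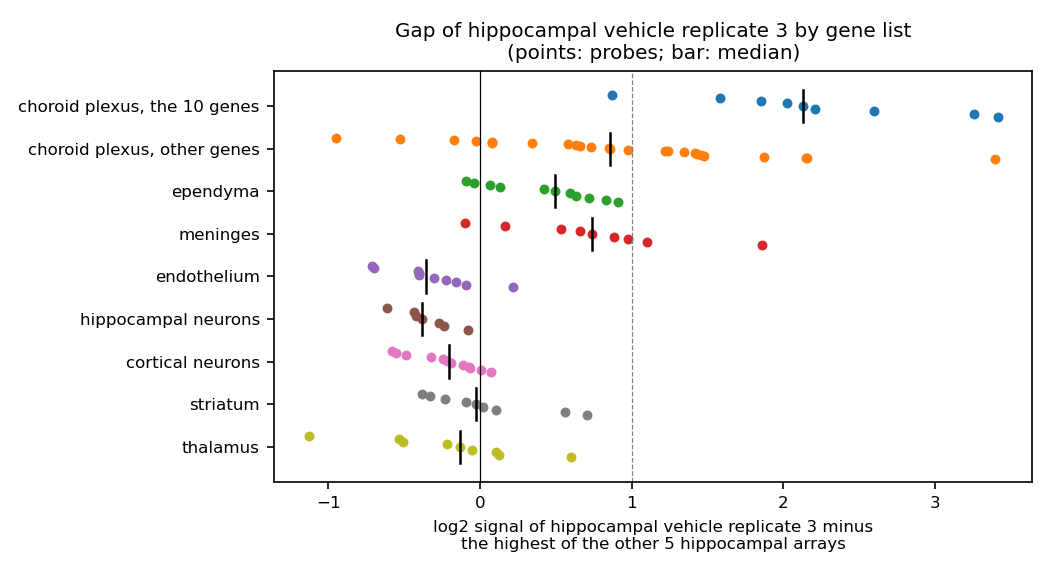
Difference on the log2 scale between hippocampal vehicle replicate 3 and the highest of the other 5 hippocampal arrays (horizontal axis), for each tested probe (points) of 9 gene lists (rows), with the median as a black bar; the dashed line is at 1. The choroid plexus genes have a median of 2.13 and 8 of 9 probes beyond the line, while the medians of the endothelial and neuronal lists are below 0.

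How evenly the genes differed between arrays was described by subtracting the median signal of undetected probes from each signal and expressing each array as a percentage of hippocampal vehicle replicate 3. The other 5 hippocampal arrays held 1.73% to 10.04% of its Ttr, 2.25% to 8.42% of its Clic6, 2.74% to 10.8% of its Prlr (probe ILMN_2617005) and 5.19% to 13.9% of its Sostdc1. They held 8.73% to 23.2% of its Kl and 10.7% to 28.9% of its Enpp2, the members with the highest shares apart from the dim Prlr probe. The cortical arrays held 0.73% to 28.7% of its Ttr, 8.57% to 24.5% of its Clic6, 2.38% to 15.5% of its Kl and 16.3% to 35.9% of its Enpp2. Kl had a cortical median of 11.5% and a hippocampal one of 15.9%, whereas Ttr had a cortical median of 18.1% and a hippocampal one of 7.25%. The dim Prlr probe (ILMN_2868699) had the order of Kl, and the other 12 probes, Ttr included, had the higher median in the cortex. These shares use deposited signals of tables exported separately, and another scaling changes them. On the log2 scale normalized over the 12 arrays, without background subtraction, the highest cortical array (AMI replicate 3) held 82.1% of the Ttr, 84.8% of the Enpp2, 42.3% of the Clic6 and 29.4% of the Kl of hippocampal vehicle replicate 3. The other hippocampal arrays held 4.24% to 10.7% of its Ttr and 18.6% to 35.5% of its Enpp2 on that scale.

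**Figure D3:**
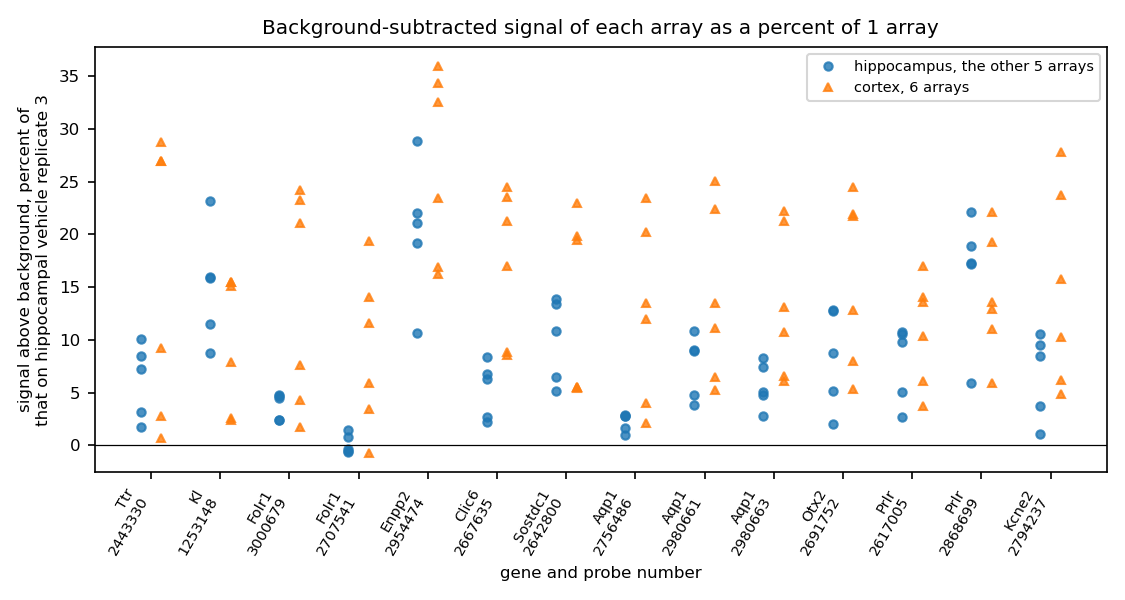
Signal above background on each array as a percentage of that on hippocampal vehicle replicate 3 (vertical axis), for the 14 probes tested over the 12 arrays (horizontal axis); circles are the other 5 hippocampal arrays and triangles the 6 cortical arrays. By these deposited signals no probe exceeds 35.9% on any other array (on the normalized scale the highest is 84.8%, Enpp2 on cortical AMI replicate 3), and all cortical arrays of Clic6 lie above its other hippocampal ones.

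In the comparison of AMI with vehicle in the hippocampus, which asks whether the treatment altered transcript levels, none of the 9 tested probes passed an adjusted p of 0.05 (limma, Benjamini-Hochberg over 13163 probes; background 0%), and neither did any other probe. All 9 estimates were below 0, with a median of -0.79 against 0.01 over all probes. Otx2 (detected on 3 vehicle arrays and 1 AMI array) and the dimmer Prlr probe (2 and 1) met the detection filter mainly through vehicle arrays. Their direction is therefore not independent of the filter. The 6 probes detected on every hippocampal array at a detection p of 0.01 or less were also all below 0 (median -1.06). Ttr averaged 5.69 ± 2.22 on the normalized log2 scale in vehicle and 4.00 ± 0.59 in AMI (SD, n = 3 arrays each), a difference of -1.69 with a standard error of 0.91 and a 95% interval from -3.77 to 0.39. The vehicle SDs of Ttr, Clic6 (2.07), Prlr (1.61) and Sostdc1 (1.30) were several times those of AMI (0.59, 0.29, 0.32 and 0.10), so the spread sat in the group that holds replicate 3. Enpp2 had a difference of -1.20 (standard error 0.42, limma unadjusted p 0.0190, adjusted p 0.9996) and was the member below an unadjusted p of 0.05, where the background was 2.35%. It was also the tested member whose groups did not overlap, as for 7.89% of all tested probes. An exact permutation test of 3 against 3 arrays cannot give a two-sided p below 0.1.

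Without vehicle replicate 3, the median of the 8 probes then tested was -0.07, with 3 above and 5 below 0, and again none passed the adjusted threshold (limma). Ttr was then at -0.42 with a standard error of 0.34, Clic6 at 0.10 with 0.20 and Prlr at -0.10 with 0.20. Enpp2 was at -0.62 with a standard error of 0.15 (limma unadjusted p 0.00424, adjusted p 0.9998) and was the probe of the 8 under an unadjusted p of 0.05 (background in that fit 2.11%). The vehicle side then rested on 2 arrays. Same-numbered hippocampal arrays deviated together (correlations 0.611, 0.296 and 0.293), but so did vehicle replicate 2 and AMI replicate 3 (0.280), so the pairing by number is uncertain. The fit with the replicate number as a block used all 6 hippocampal arrays, vehicle replicate 3 among them, and was not repeated without it. In that block fit 5 of the 9 probes (Ttr, Enpp2, Otx2 and both tested Prlr probes) had a limma unadjusted p under 0.05 (background in that fit 8.08%). None of the 9 passed after adjustment in that fit (limma adjusted p 0.566 to 0.674). Otx2 and Prlr probe ILMN_2868699 had met the detection filter mainly through vehicle arrays.

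Probes that were detected on hippocampal vehicle arrays and on no AMI array have only an approximate bound. It compares the mean of all 3 vehicle arrays, undetected ones at their measured signals, with the lowest detected signal of each AMI array. The vehicle mean was 1.97-fold above that limit for Aqp1 probe ILMN_2756486 (detected on 2 of 3 vehicle arrays). It was 1.44-fold and 1.30-fold above it for the Folr1 probes and 1.23-fold for Aqp1 probe ILMN_2980663 (each detected on vehicle replicate 3 alone). These are not strict lower bounds. With a detection p of 0.01 as the limit they were 1.69, 1.24, 1.12 and 1.06 in the same order. Without vehicle replicate 3 no bound can be given: both Folr1 probes and Aqp1 probe ILMN_2980663 were then detected on no vehicle array, and the vehicle mean of Aqp1 probe ILMN_2756486, detected on 1 of 2, was below that limit. No test was made of these probes in the hippocampus.

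The other choroid plexus genes gave no call in the hippocampus either. All 25 tested probes were below 0, with a median of -0.48, and 3 had an unadjusted p under 0.05 (limma, background 2.35%). Without vehicle replicate 3, 8 of the 25 were above and 17 below 0, with a median of -0.05. None was called in that fit and 3 had an unadjusted p under 0.05 (limma, background 2.11%). With all arrays the lowest p was that of Slc12a2, the sodium, potassium and chloride cotransporter (-0.26, standard error 0.09), followed by Car2, a carbonic anhydrase (-0.44, 0.19), Car14, another carbonic anhydrase (-0.52, 0.25), Cldn1, a tight junction protein (-0.24, 0.12), and Lbp, the lipopolysaccharide binding protein (-0.67, 0.36), all at an adjusted p of 0.9996 (limma). With all arrays, ependymal probes were also all below 0 (11 of 11, median -0.35), as were 8 of 9 meningeal ones (median -0.34). That fit holds vehicle replicate 3, where 9 of 11 ependymal and 8 of 9 meningeal probes were highest. These 2 lists were not summarized without that array.

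**Figure D4:**
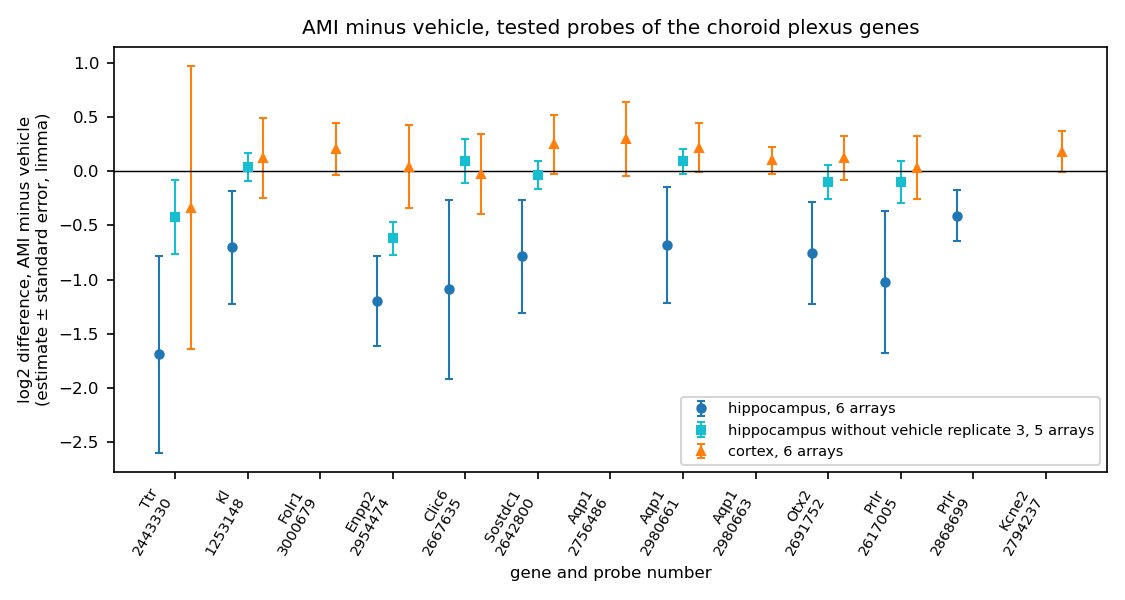
Difference between AMI and vehicle on the log2 scale (vertical axis; points are limma estimates, bars their standard errors) for the tested probes of each gene, in the hippocampus with 6 arrays, in the hippocampus without vehicle replicate 3, and in the cortex with 6 arrays. All hippocampal estimates from 6 arrays lie below 0, those without that array lie near 0 except Enpp2 (-0.62) and Ttr (-0.42), and the cortical estimates lie on both sides with the widest bar for Ttr.

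In the cortex 12 probes of all 10 genes were tested for AMI against vehicle. None passed the adjusted threshold or an unadjusted p of 0.05 (limma over 12944 probes; background 0% and 6.28%), and the groups of all 12 overlapped, where 12.2% of all tested probes did not. The median was 0.12 against 0.02 over all probes, with 10 above and 2 below 0. Ttr averaged 5.06 ± 1.63 in vehicle and 4.73 ± 2.86 in AMI (SD, n = 3 arrays each) and differed by -0.34 with a standard error of 1.31. The 95% interval of its difference, from -3.32 to 2.65, was the widest of the members. The largest positive estimates were those of Aqp1 probe ILMN_2756486 (0.30, standard error 0.34) and Sostdc1 (0.25, 0.27).

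Within the cortex the member probes had similar orders of arrays, with high and low arrays in both treatments. After normalization AMI replicate 3 was highest for 11 of the 12 probes, and for all 12 after quantile normalization, but by the deposited signals AMI replicate 2 was highest for 6, AMI replicate 3 for 3 and vehicle replicate 1 for 3. The 3 highest arrays were vehicle replicate 1 and AMI replicates 2 and 3 for 8 of the 12 probes. The lowest array was vehicle replicate 2 for 6 probes and AMI replicate 1 for the other 6. How often all 12944 tested cortical probes had these orders was not counted, so the counts describe the members only. Without AMI replicate 1 all 12 estimates were above 0 (median 0.42) and 2 had an unadjusted p under 0.05 (background in that fit 2.96%), and without AMI replicate 3 the median was -0.03 with 9 of 12 below 0, none passing the adjusted threshold (limma). Of the other choroid plexus genes, 26 probes were tested and none was called, with 18 above and 8 below 0. Their lowest p-values were those of Igfbp2, a binding protein of insulin-like growth factors (0.57, standard error 0.20), Car2 (0.34, 0.13), the serotonin receptor Htr2c (0.18, 0.10), Slc13a4 (0.51, 0.30) and Cldn1 (0.16, 0.11), with adjusted p from 0.756 to 0.860 (limma). Meningeal probes were all above 0 in this comparison (12 of 12, median 0.17), and their part in these values was not tested.

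The difference between the tissues in the response to AMI was tested as an interaction over all 12 arrays. None of the 14 tested probes passed (limma; background 0%), and none had an unadjusted p under 0.05 (background 3.17%). All 14 estimates were below 0, with a median of -0.92 against -0.02 over all probes. Folr1 probe ILMN_2707541 met the 12-array filter, also used between tissues, with 3 detected arrays, hippocampal vehicle replicate 3 among them. Its direction is therefore not independent of the filter, and it was not tested without that array. Without hippocampal vehicle replicate 3 the median was -0.14 over 13 probes, and the Ttr estimate was -0.05 with a standard error of 1.78.

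Between hippocampus and cortex none of the 14 probes was called (limma), where 42.2% of all 13929 probes were. Of the 14, 6 were above and 8 below 0, with a median of -0.03 against 0.02 over all probes. The highest was Kl (0.74, standard error 0.36, adjusted p 0.119) and the lowest Clic6 (-0.78, 0.51) and Ttr (-0.60, 0.94), all by limma. Within vehicle mice 13 of 14 were higher in the hippocampus in estimate (median 0.38), and within AMI mice 13 of 14 were lower (median -0.45), none called in either (limma), with 1 of 14 at an unadjusted p under 0.05 in each (background 37.1% in vehicle and 38.6% in AMI). Without hippocampal vehicle replicate 3, 11 of 13 probes had estimates below 0 and 2 were called lower in the hippocampus, where 39.3% of all probes in that fit were called in either direction. These were Clic6 (-1.33, standard error 0.26, limma adjusted p 0.00203) and Aqp1 probe ILMN_2756486 (-0.79, 0.23, limma adjusted p 0.0176). The other Aqp1 probes were lower but not called (ILMN_2980661 -0.36, limma adjusted p 0.0817, and ILMN_2980663 -0.23, 0.0592). Among the hippocampal arrays left, ILMN_2756486 was detected on vehicle replicate 1 alone, so its hippocampal values lay mostly at background. Within vehicle mice the direction turned without that array, with 2 of 13 above and 11 below 0, a median of -0.28 and Clic6 called (limma, background 19.1%). Within AMI mice 12 of 13 were then below 0, with a median of -0.43. Clic6 and the same Aqp1 probe were called (limma, background 25.5%), the Aqp1 probe being detected on no hippocampal AMI array. These tissue calls rest on leaving out an array chosen after its values were seen.

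Of the other choroid plexus genes, 6 of 31 probes were called between the tissues, 2 higher and 4 lower in the hippocampus. This share was below the 42.2% of all tested probes that were called (limma). Car12, a carbonic anhydrase, was higher by 1.01 (standard error 0.15, limma adjusted p 0.000214) and Slc29a4, a monoamine transporter, by 0.97 (0.17, limma adjusted p 0.000704). Slc13a4 was lower in the hippocampus at -1.40 (0.44, limma adjusted p 0.0210). Igf2 (-0.84, 0.36) and Igfbp2 (-0.58, 0.26) had the next estimates in size and did not pass. Meningeal probes were called in 8 of 12 cases, 3 higher and 5 lower in the hippocampus. Ependymal ones were called in 5 of 11, all higher, a count close to the share of all probes (42.2%).

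The genes most like Ttr over the 12 arrays were ranked by the Pearson correlation of their normalized log2 signals with Ttr after each tissue's mean was removed, among 13928 other probes, as a description. The points share arrays and tissue, and 1 array stands apart in them. Kl was first at 0.911, followed by 1500015O10Rik at 0.891 and Acta2, smooth muscle actin, at 0.885 and 0.880 for its 2 probes. Epn2, an endocytic adaptor, was at 0.882, 2600011E07Rik at 0.874, Aoc3, an amine oxidase of vessels, at 0.872, Myh11, smooth muscle myosin, at 0.863, Rdh5, a retinol dehydrogenase, at 0.856, and Tuba6, a tubulin, at 0.845. Of the other members, Clic6 (0.836), Enpp2 (0.834), Aqp1 (0.828), Sostdc1 (0.827), Otx2 (0.825), Folr1 (0.823) and Prlr (0.821) had ranks from 13 to 23 by their brightest tested probes, and Kcne2 (0.775) rank 42. Over the 11 arrays without hippocampal vehicle replicate 3, the 10 highest were Rdh5 (0.967), Kl (0.931), 1500015O10Rik (0.912), Clic6 (0.907), Otx2 (0.900), Cldn2, a claudin of the epithelium (0.873), 2 Aqp1 probes (0.870 and 0.863), Prlr (0.870) and Folr1 (0.863). Acta2 then ranked 17 and 21 and Myh11 31, and Enpp2 ranked 49 at 0.749. Members of the choroid plexus lists filled the 10 highest places once the array was left out, and 3 of the 10 with it. The detection filter for both rankings was that of all 12 arrays. Cldn2 met it with 3 arrays, among them hippocampal vehicle replicate 3 (signal 270). The lists were chosen with earlier results of these data known, so the places they filled are a description.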

How the data were processed

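The authors deposited, for each tissue, a table of probe intensity (the mean bead signal from BeadStudio 3.4.0 in one table and GenomeStudio 1.1.1 in the other, per the file headers, not normalized or background-subtracted) and the detection p-value of each probe on each array. Arrays were assigned by their labels, and no column of per-sample values was left unused. Each array was z-normalized on the log2 scale, after the methods (mean 0 and SD 1 over its probes), and returned to log2 units by the average array SD. This was done by tissue for treatment and over 12 arrays for tissue and interaction. Probes detected (p of 0.05 or less) on at least 3 arrays entered limma 3.58.1 (R 4.3.3), which was tested on simulated data, with Benjamini-Hochberg adjustment and a threshold of 0.05. Python 3.11.15 made tables and figures. Summed levels add each gene's brightest probe, normalized over 12 arrays. Median residual SDs were 0.146 (hippocampus) and 0.133 (cortex), and the number of arrays limits the precision.

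The genes and lists were chosen with earlier results of these data known. Named were all members, the 5 other choroid plexus genes with the largest tissue difference and the 5 with the lowest p in each treatment comparison, and the 10 probes most like Ttr. Ptgds, Slc6a13, 1500015O10Rik, Igf2 and the genes ranked without the array were chosen after their values were seen. Deviations of same-numbered AMI and vehicle arrays correlated at 0.611, 0.296 and 0.293 in the hippocampus, where every such pair exceeded 0.1. In the cortex they correlated at -0.06, 0.329 and 0.333. Differently numbered hippocampal pairs reached 0.280 (vehicle 2 with AMI 3) and 0.167 (vehicle 3 with AMI 2), and the others lay between -0.472 and -0.334. Differently numbered cortical pairs reached 0.271. The pairing thus comes from the data and not from the labels, and is not clear for replicates 2 and 3.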

Additional observations from a re-analysis of the deposited data

How the results depend on the processing

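No member was called in a treatment comparison under any alternative that was run. In the cortex 2 of all probes were called under neqc, with a variance trend and robust variances, and with array weights, against 0, and leaving out each array gave 0 to 1 (1 without AMI replicate 3). In the hippocampus leaving out each array gave 0 to 1 (1 without AMI replicate 2). With the replicate number as a block, which pairs the hippocampal arrays, 1063 hippocampal probes had a limma unadjusted p under 0.05, against 309. The BeadChip as a block was not run, since the headers name no chip. The cause of the turns in sign that follow was not tested, and none of these estimates passed its test unless the report says so.

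Array weights turned the cortical AMI estimates below 0 for Kl (-0.43), Folr1 (-0.16), Enpp2 (-0.29), Sostdc1 (-0.25), Aqp1 (-0.13, -0.13 and -0.050), Otx2 (-0.16), Prlr (-0.28) and Kcne2 (-0.14). Prlr was at -0.025 with quantile normalization and -0.013 with neqc, and Clic6 at 0.0029 with median centring. For hippocampus minus cortex, median centring, which moved the median of all probes to 0.18, gave 0.064 for Ttr, 0.14 for Enpp2 and 0.013 for Otx2, and array weights 0.26 for Ttr, 0.015 for Otx2 and -0.011 for Aqp1 probe ILMN_2980663. The Aqp1 probe ILMN_2980661 was at -0.037 with quantile normalization and -0.18 with neqc, which put ILMN_2980663 at -0.021.

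Leaving out each array in turn gave hippocampal AMI estimates from -1.08 to 0.043 for Kl, -1.84 to 0.096 for Clic6 and -1.14 to 0.092 for Aqp1, lowest without vehicle replicate 1 and highest without vehicle replicate 3. Cortical AMI estimates ran from -1.52 to 1.26 for Ttr, -0.19 to 0.50 for Kl, -0.42 to 0.34 for Enpp2, -0.39 to 0.30 for Clic6, -0.025 to 0.66 and -0.0082 to 0.22 for Aqp1 (ILMN_2756486 and ILMN_2980663), -0.055 to 0.30 for Otx2, -0.28 to 0.27 for Prlr and -0.019 to 0.39 for Kcne2. Tissue differences ran from -1.46 to 0.018 for Ttr, -0.42 to 0.079 and -0.16 to 0.11 for Folr1 (ILMN_3000679 and ILMN_2707541), -0.17 to 0.38 for Sostdc1, -0.36 to 0.21 and -0.23 to 0.14 for Aqp1 (ILMN_2980661 and ILMN_2980663), -0.35 to 0.15 for Otx2, -0.32 to 0.38 for Prlr and -0.32 to 0.15 for Kcne2.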

Other observations

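Genes outside the lists that also exceeded the other 5 hippocampal arrays on vehicle replicate 3 are given here as values, chosen after those values were seen. Wfdc2, a secreted protease-inhibitor-like protein, exceeded the next array by 2.91 on the log2 scale, with a signal of 703 against 63.6 to 89.3 on the other hippocampal arrays and 88.3 to 189 in the cortex. Cox8b, a subunit of cytochrome c oxidase, exceeded it by 2.03 (488 against 76.8 to 129), and Cdkn1c, an imprinted inhibitor of the cell cycle, by 1.79 (948 against 130 to 302). Aebp1, a protein of the extracellular matrix, did so by 1.40 and Krt12, a keratin, by 1.35. Krt12 read 194 to 548 in the cortex, so that its hippocampal signal of 265 lay inside the cortical range. Xlr4a, an X-linked gene, exceeded the next array by 1.13 and read 393 against 72.8 to 203.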
